A study of Arabidopsis thaliana with 18 samples.

Results

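SBPASE, PRK, PSAN and ATPC1 are nuclear genes whose products work in the chloroplast, the first pair in the stroma and the second pair at the thylakoid membrane. They were chosen with earlier results of these data known, and found by the symbol that the array annotation gives to their probe sets. Each gene had 1 such probe set, so the account rests on 4 of the 22746 probe sets tested. Their loci are AT3G55800 for SBPASE, AT1G32060 for PRK, AT5G64040 for PSAN and AT4G04640 for ATPC1. Their levels were described in 6 groups of Arabidopsis thaliana plants, and the UV effects of the stromal enzymes were set against those of the thylakoid subunits.

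In the light, the photosystems of the thylakoid membrane move electrons and build a proton gradient, and the ATP synthase uses that gradient to make ATP. The Calvin cycle in the stroma spends the ATP and reducing power to fix carbon dioxide onto ribulose bisphosphate and to regenerate that acceptor. SBPASE codes for sedoheptulose bisphosphatase and PRK for phosphoribulokinase, enzymes of the regeneration phase that are switched on in the light through thioredoxin. PSAN codes for a subunit of photosystem I on the lumen side of the membrane, where plastocyanin docks. ATPC1 codes for the gamma subunit of the chloroplast ATP synthase, the rotating shaft that couples proton flow to ATP synthesis.

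The Col-0 background carried 3 genotypes: the wild type (WT), tt4, a mutant impaired in flavonoid biosynthesis, and sng1, a mutant impaired in the biosynthesis of sinapoyl malate. Flavonoids and sinapate esters absorb ultraviolet light. All plants were 18 days old, had grown for 17 days on solid medium with 1% sucrose (22 °C, days of 16 h and nights of 8 h), and were sampled as aerial region. On day 18 a plant received either 24 h of ultraviolet light (UV, called UV-B in the series title) or, as the control, continuous light (CO), in which light was added for 8 h. Harvest fell 6 h after the bright phase began in both. The groups were WT_UV, WT_CO, tt4_UV, tt4_CO, sng1_UV and sng1_CO, with 3 arrays each and 1 plant per array, so that p-values measure the spread between single plants. The labels state the additional light for CO plants only, and the running code in the sample titles puts every UV array before every CO array. Light quality, the hours of light and this order cannot be told apart in the UV effects below.

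The arrays carried linear signals already scaled by the authors to a common trimmed mean of 500. The values below are log2 of those signals after quantile normalization between arrays unless deposited signals are named. The log2 ratio of 3′ to 5′ control signal, a sign of RNA integrity, differed between UV and CO by −0.16 and 0.08 for the GAPDH control pairs and by 0.79 and 0.21 for the actin pairs (means of 9 arrays each). RCA, the 1 measured of 5 leaf markers, lay between 13.79 and 14.18 on all arrays. Of 9 root markers 3 were measured: EXPA7 and EXPA18 stayed between 5.59 and the floor, which was 4 on the log2 scale, while PYK10 ranged from 9.70 to 11.99 under UV and from 11.76 to 12.58 in CO. The summed linear signal of the root markers ranged from 884 to 4108 under UV and from 3502 to 6161 in CO, that of the single leaf marker from 14176 to 16304 and from 16024 to 18595. EXPA7 was at the floor on 5 arrays and EXPA18 on 11. None of 5 floral markers had a named probe set. The part of these values in the results was not tested. In such bulk RNA, fewer green cells and less of a transcript per cell cannot be told apart.

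SBPASE showed the largest UV effect of the 4 genes, a fall to about 46.1% of its CO level over the 3 genotypes. In WT its values were 12.18, 11.75 and 11.82 under UV and 13.09, 13.12 and 12.74 in CO. In tt4 they were 11.79, 11.83 and 11.31 under UV and 13.01, 13.02 and 13.06 in CO. In sng1 they were 11.62, 11.96 and 12.09 under UV and 12.76, 12.96 and 12.68 in CO. Every UV array lay below every CO array, and the tt4 CO arrays were the most alike, while a single UV array, tt4_UV 3, was the lowest of all. The UV effect was −1.06 ± 0.17 in WT (log2 ± SE, 3 against 3 arrays, adjusted p = 0.000665), −1.38 ± 0.17 in tt4 (9.73e-05) and −0.91 ± 0.17 in sng1 (0.00182), all from limma with Benjamini-Hochberg adjustment. These effects left 47.8%, 38.3% and 53.4% of the CO level.

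PRK, which makes the carbon dioxide acceptor in the last step of the cycle, fell nearly as far, to about 51.0% of its CO level. Its WT values were 12.51, 11.94 and 12.29 under UV and 13.16, 13.23 and 12.90 in CO. The tt4 values were 12.45, 12.22 and 12.02 under UV and 13.35, 13.27 and 13.33 in CO. In sng1 the arrays read 12.23, 12.02 and 12.19 under UV and 13.07, 13.25 and 13.06 in CO. The UV and CO arrays did not overlap in any genotype. The UV effect was −0.85 ± 0.14 in WT (limma, 3 against 3, adjusted p = 0.000898), −1.09 ± 0.14 in tt4 (0.00015) and −0.98 ± 0.14 in sng1 (0.000357). PRK was thus left at 55.5%, 47.1% and 50.7% of the CO level.

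PSAN also fell in every genotype, by less, to about 64.1% of its CO level. In WT the values were 13.11, 12.67 and 12.86 under UV and 13.55, 13.57 and 13.39 in CO. In tt4 they were 13.03, 12.79 and 12.79 under UV and 13.45, 13.66 and 13.33 in CO. In sng1 they were 12.51, 12.63 and 12.87 under UV and 13.24, 13.44 and 13.42 in CO. All UV arrays were again below all CO arrays, with the narrowest gap between WT_UV 1 and sng1_CO 1. The UV effects were −0.62 ± 0.13 in WT (limma, 3 against 3, adjusted p = 0.00347), −0.61 ± 0.13 in tt4 (0.00332) and −0.70 ± 0.13 in sng1 (0.0017). They left 65.0%, 65.6% and 61.6% of the CO level, and in tt4 the call ended without the 3 arrays of lowest weight, tt4_UV 3, tt4_CO 2 and WT_CO 2 (−0.47, adjusted p = 0.0615).

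ATPC1 moved least of the 4 genes. Its WT values were 13.73, 13.58 and 13.67 under UV and 13.77, 13.85 and 13.73 in CO. The tt4 values were 13.66, 13.59 and 13.58 under UV and 13.77, 13.85 and 13.83 in CO. The sng1 values were 13.56, 13.63 and 13.53 under UV and 13.76, 13.77 and 13.67 in CO. WT_UV 1 and WT_CO 3 had the same normalized value, so that the WT groups touched, whereas the tt4 and sng1 groups did not overlap. The UV effect did not pass in WT (−0.12 ± 0.05, limma, 3 against 3, adjusted p = 0.071), and it did in tt4 (−0.21 ± 0.05, 0.00527) and sng1 (−0.16 ± 0.05, 0.0254). The levels were 91.8%, 86.7% and 89.6% of those in CO.

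The ATPC1 calls in WT and sng1 depended on single plants, and those in tt4 and sng1 on the treatment of dim signals of other probe sets. Without WT_UV 1 the WT effect passed (−0.16, adjusted p = 0.0325). The sng1 call ended without sng1_UV 1 (−0.15), sng1_UV 3 (−0.14), sng1_CO 1 (−0.14) or sng1_CO 2 (−0.14). With a floor of 1, the same effects missed the threshold in tt4 (limma, adjusted p = 0.0631) and sng1 (0.166), and with dim probe sets left out likewise (0.0711 and 0.178). The values of ATPC1 were the same in these fits, and only the standard error and the adjustment, which draw on all probe sets, differed. The effect averaged over the 3 genotypes, −0.16 ± 0.03 (limma, 9 against 9 arrays, adjusted p = 0.000247), passed without any 1 array.

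**Figure D1:**
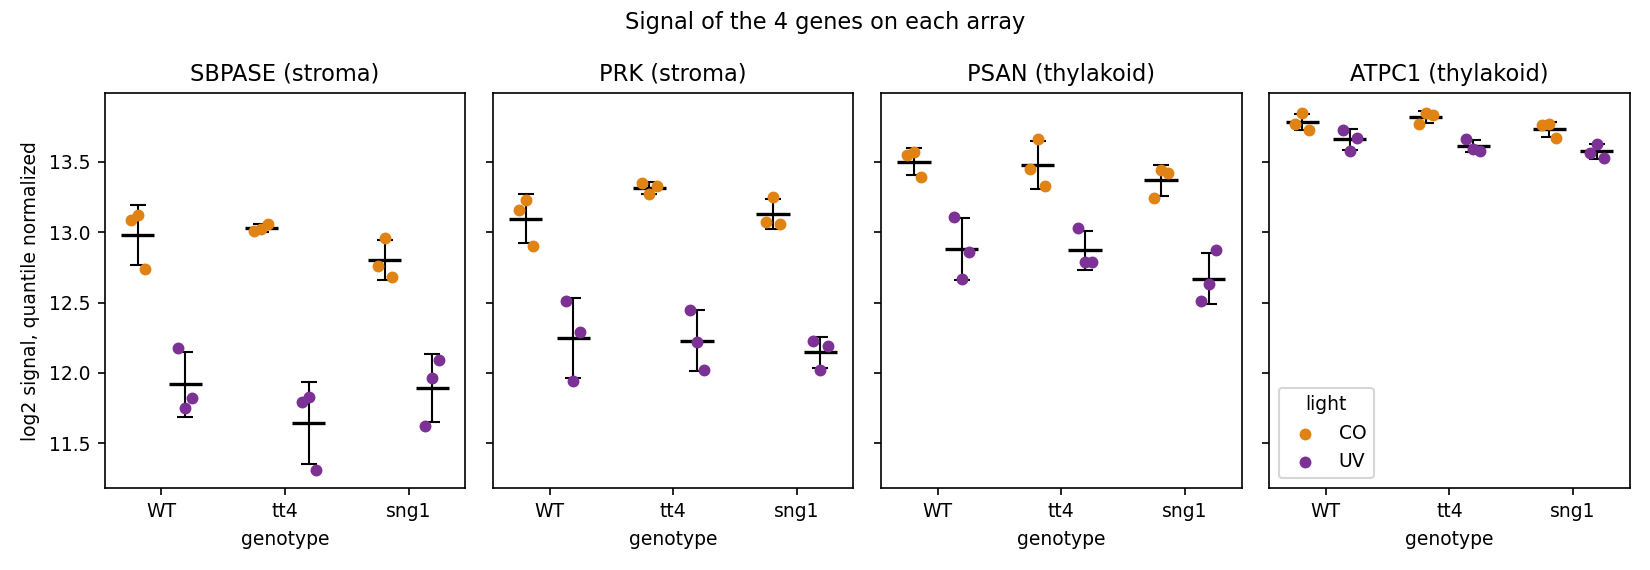
Log2 signal after quantile normalization (vertical axis) of SBPASE, PRK, PSAN and ATPC1 on each of the 18 arrays, by genotype and light; points are arrays, thick bars group means and thin bars 1 SD (n = 3). UV points lie below CO points throughout for SBPASE, PRK and PSAN, while those of ATPC1 lie close together, at 13.53 to 13.73 under UV and 13.67 to 13.85 in CO.

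Counted over genotypes, SBPASE, PRK and PSAN fell in all 3, and ATPC1 in tt4 and sng1. Because the genes were chosen with earlier results known, the counts here and in the next paragraph only describe them. In WT 3 of the 4 genes were called lower, where 11.9% of all probe sets were. In tt4 and in sng1 all 4 were called lower, against backgrounds of 14.1% and 11.6%. For the mean effect of the 3 genotypes all 4 were called lower, against 22.0%, and probe sets lower and called in every genotype made up 7.77% of all. In either direction the calls covered 24.4% of probe sets in WT, 26.7% in tt4, 23.5% in sng1 and 42.8% for the mean.

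Groups that did not overlap gave a similar picture. The 9 UV arrays all lay below the 9 CO arrays for 3 of the 4 genes, with gaps of 0.50 for SBPASE, 0.39 for PRK and 0.13 for PSAN, where 7.99% of all probe sets did so. For ATPC1 the highest UV value exceeded the lowest CO value by 0.06, a gap of −0.06. Within genotypes, the UV arrays were all below the CO arrays for 3 of 4 genes in WT and for all 4 in tt4 and sng1, against 17.4%, 17.7% and 20.8% of probe sets.

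**Figure D2:**
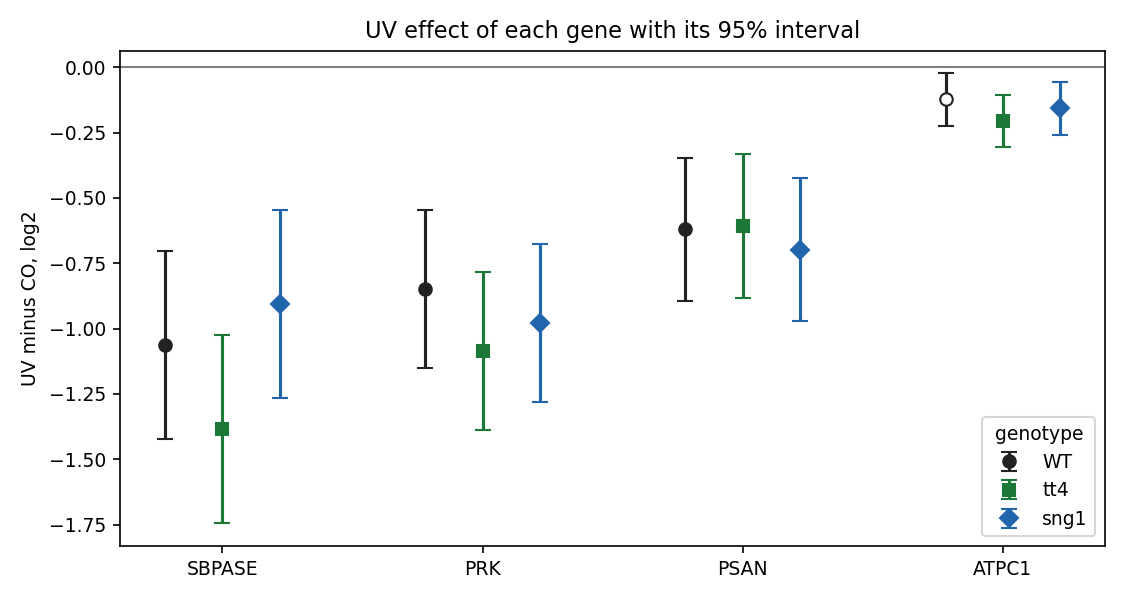
UV minus CO (log2, vertical axis) of each gene in WT, tt4 and sng1, with the 95% interval of the limma fit; filled symbols passed the threshold and the open one did not. SBPASE ran from −1.38 to −0.91, PRK from −1.09 to −0.85, PSAN from −0.70 to −0.61 and ATPC1 from −0.21 to −0.12.

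In the order of the 6 group means every CO group stood above every UV group, for each of the 4 genes. The share of all probe sets with CO groups above UV groups in this way was not counted. SBPASE was highest in tt4_CO (13.03 ± 0.03, SD, n = 3), followed by WT_CO (12.98 ± 0.21) and sng1_CO (12.80 ± 0.14), and then by WT_UV (11.92 ± 0.23), sng1_UV (11.89 ± 0.24) and tt4_UV (11.64 ± 0.29). Of the 5 steps in that order only the one from sng1_CO to WT_UV separated groups that did not overlap. PRK ran from tt4_CO (13.31 ± 0.04) through sng1_CO (13.13 ± 0.11) and WT_CO (13.10 ± 0.17) to WT_UV (12.25 ± 0.29), tt4_UV (12.23 ± 0.22) and sng1_UV (12.15 ± 0.11). Here tt4_CO stood above sng1_CO with no overlap, and WT_CO above WT_UV.

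PSAN ran from WT_CO (13.50 ± 0.10), tt4_CO (13.48 ± 0.17) and sng1_CO (13.37 ± 0.11) to WT_UV (12.88 ± 0.22), tt4_UV (12.87 ± 0.14) and sng1_UV (12.67 ± 0.18). Its neighbours overlapped except at the step from CO to UV. ATPC1 ran from tt4_CO (13.82 ± 0.04), WT_CO (13.78 ± 0.06) and sng1_CO (13.73 ± 0.05) to WT_UV (13.66 ± 0.08), tt4_UV (13.61 ± 0.04) and sng1_UV (13.57 ± 0.05), and no neighbours in that order were separated. In some groups the same plant was high or low for all 4 genes. WT_UV 1 was the highest and WT_UV 2 the lowest WT plant under UV for all 4 genes, WT_CO 2 and WT_CO 3 held these places in CO, and sng1_CO 2 was the highest of its group for all 4. In tt4_UV the same plant was highest for 3 genes. Another, tt4_UV 3, was lowest for 3 genes and shared the lowest PSAN value with tt4_UV 2. In tt4_CO and sng1_UV no plant was highest or lowest for more than 2.

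The stromal enzymes were compared with the thylakoid subunits within each array, as the mean log2 value of SBPASE and PRK minus that of PSAN and ATPC1. A fixed difference in brightness between probe sets cancels when this quantity is compared between lights. A shift that depends on signal level does not cancel. Mean levels over all arrays were 12.38 for SBPASE, 12.69 for PRK, 13.13 for PSAN and 13.70 for ATPC1. The mean UV effects had the same order, from the largest fall to the smallest. The part of signal level in the contrast was not tested. In WT the stromal minus thylakoid difference was −1.08, −1.28 and −1.21 under UV and −0.53, −0.54 and −0.74 in CO. In tt4 it was −1.23, −1.17 and −1.52 under UV and −0.43, −0.61 and −0.38 in CO. In sng1 it was −1.10, −1.14 and −1.06 under UV and −0.58, −0.50 and −0.68 in CO. The stromal pair was thus lower relative to the thylakoid pair on every UV array than on any CO array, with a gap of 0.32. The difference between lights was −0.58 for WT, −0.83 for tt4 and −0.51 for sng1, given as a description with no test because the genes were chosen with earlier results known.

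The single pairs show what that average holds. SBPASE minus ATPC1 shifted by −0.94 for WT, −1.18 for tt4 and −0.75 for sng1, and PRK minus ATPC1 by −0.73, −0.88 and −0.82, with no overlap between lights in any genotype. Against PSAN the stromal enzymes shifted less. SBPASE minus PSAN shifted by −0.44 for WT, −0.78 for tt4 and −0.21 for sng1, and PRK minus PSAN by −0.23, −0.48 and −0.28. For both of these pairs the lights were separated in WT and tt4 and overlapped in sng1.

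Genes of the same side also differed. PSAN minus ATPC1, both thylakoid, shifted by −0.50 for WT, −0.40 for tt4 and −0.54 for sng1, separated in every genotype. SBPASE minus PRK, both stromal, shifted by −0.21 in WT and −0.30 in tt4, where the lights did not overlap, and by 0.07 in sng1, where they did. After quantile normalization, the mean shift between the thylakoid subunits themselves was −0.48, as large as that of SBPASE minus PSAN, also −0.48. It was larger than that of PRK minus PSAN, −0.33. Against ATPC1 the mean shifts were −0.96 for SBPASE and −0.81 for PRK. The contrast of stroma with thylakoid was thus larger against ATPC1, and a smaller one remained against PSAN.

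**Figure D3:**
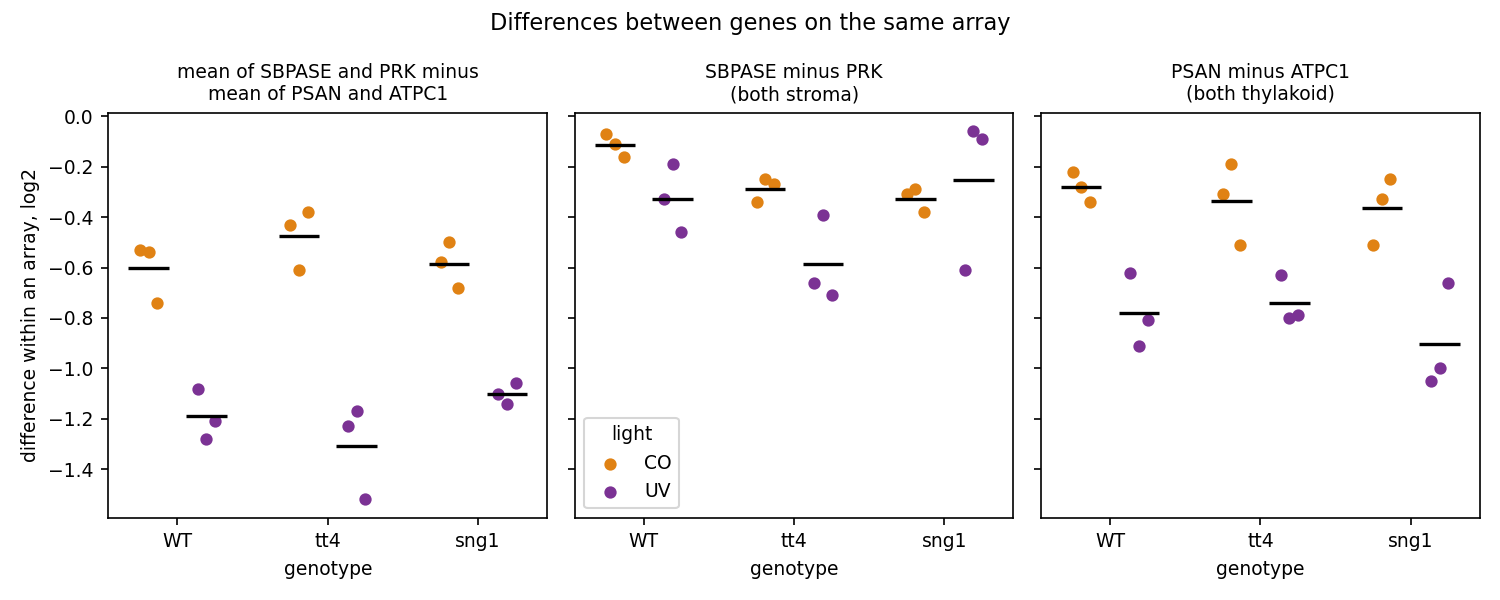
Log2 differences between genes on the same array (vertical axis) for the stromal mean minus the thylakoid mean, SBPASE minus PRK and PSAN minus ATPC1; points are arrays and bars are means of 3. Stroma minus thylakoid lies between −1.52 and −1.06 under UV and between −0.74 and −0.38 in CO, and PSAN minus ATPC1 is also lower under UV in every genotype.

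The size of the ATPC1 effect depended on how the arrays were scaled. As deposited, its signals were 12500, 11300 and 11700 in WT_UV and 16500, 17000 and 14800 in WT_CO. They were 12300, 11100 and 10900 in tt4_UV and 16300, 17400 and 15300 in tt4_CO, and 11200, 11000 and 11300 in sng1_UV and 14500, 14400 and 13100 in sng1_CO. On that scale every UV array lay below every CO array for ATPC1 too, with a gap of 0.06, so that all 4 genes were separated where 8.04% of probe sets were. With arrays centred on their medians the 3 genes SBPASE, PRK and PSAN were separated over all arrays and ATPC1 in each genotype alone, where 6.85% of probe sets were separated over all arrays.

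The UV effect of ATPC1 as deposited was −0.44 ± 0.07 in WT (limma, 3 against 3, adjusted p = 0.000592), −0.51 ± 0.07 in tt4 (0.000168) and −0.32 ± 0.07 in sng1 (0.00438). With arrays centred on their medians it came to −0.37 for WT, −0.52 for tt4 and −0.24 for sng1, and it passed in each. The mean effect over genotypes was −0.42 as deposited and −0.38 after centring, against −0.16 after quantile normalization. The mean effects of the other genes as deposited were −1.21 for SBPASE, −1.10 for PRK and −0.80 for PSAN, with PSAN between −0.85 and −0.74 in the 3 genotypes.

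The brightest signals were higher on CO arrays than on UV arrays. The 99th percentile of the deposited signals ranged from 7714 to 8175 on UV arrays and from 8338 to 9389 on CO arrays, while the 90th percentile ranged from 1572 to 1598 and from 1533 to 1580. Quantile normalization gives every array the same distribution. It raised the UV values against the CO values by 0.26 for ATPC1, 0.16 for PSAN, 0.13 for PRK and 0.09 for SBPASE. Stroma minus thylakoid kept its direction on the deposited scale, with shifts of −0.48 in WT, −0.71 in tt4 and −0.46 in sng1 and no overlap between lights, and PSAN minus ATPC1 shifted by −0.38, −0.33 and −0.42.

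**Figure D4:**
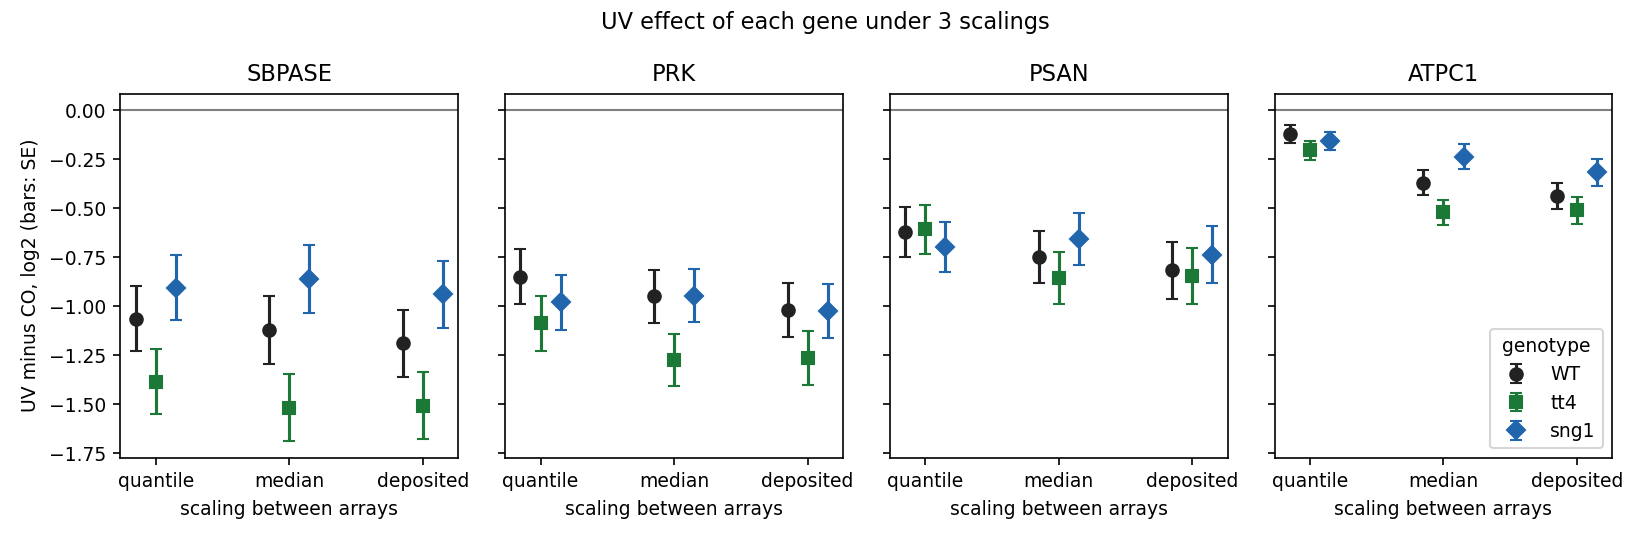
UV minus CO (log2, vertical axis, bars are 1 SE) of each gene in WT, tt4 and sng1 after quantile normalization, after centring arrays on their medians and on the values as deposited. Every value lies below 0; between scalings PSAN moves from −0.61 to −0.86 in tt4, and ATPC1 from −0.12 to −0.44 in WT.

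The mutants did not differ from WT, or from each other, in any of the 4 genes by the test across all probe sets. None of 24 comparisons of genotypes within a light passed, and none had an unadjusted p under 0.05 in limma, with differences from −0.28 to 0.23 and a smallest unadjusted p of 0.0889. All probe sets gave few calls as well: 0.0132% for tt4 minus WT and 0.022% for sng1 minus WT under UV, 0.022% and 0.00879% in CO, and 0.0264% and 0.0484% for tt4 minus sng1 under UV and in CO. Groups that did not overlap were found for PRK in tt4 against WT in CO (0.22 higher, 5.97% of probe sets separated) and for PRK (0.19 higher) and SBPASE (0.23 higher) in tt4 against sng1 in CO (10.6% separated). The other 4 genotype comparisons separated none of the 4 genes, where 6.58% (tt4 against WT, UV), 8.45% and 9.34% (sng1 against WT, UV and CO) and 9.25% (tt4 against sng1, UV) of probe sets were separated.

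The UV effects were also compared between genotypes. None of the 12 differences of UV effects passed and none had an unadjusted p under 0.05 in limma, where 0.0044% of probe sets were called for tt4 against WT, 0.0% for sng1 against WT and 0.0044% for tt4 against sng1. The largest was that of SBPASE, whose effect was lower in tt4 than in sng1 by −0.48 ± 0.24 (95% interval −0.99 to 0.03, limma, unadjusted p = 0.0632, adjusted p = 0.919). Against WT, the tt4 effect of SBPASE differed by −0.32 (interval −0.83 to 0.19) and that of PRK by −0.24 (−0.66 to 0.19). For ATPC1 the difference of tt4 from WT was −0.08 (−0.22 to 0.06). The median standard error of such a difference over all probe sets was 0.24.

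Other genes of the same pathways were read from lists of named members, many of which had no named probe set. These lists too were drawn up with earlier results known. Their counts stand beside the shares of all probe sets given above: 22.0% called lower in the mean effect, 7.77% called lower in every genotype and 7.99% with all UV arrays below all CO arrays. The Calvin cycle list held 21 genes, of which 4 were measured, 2 of them SBPASE and PRK. AT5G64380, which is in the list by its locus, fell by 0.70 on the log2 scale in the mean of the 3 genotypes (SE 0.15, limma, 9 against 9, adjusted p = 0.00181). AT1G56190, also listed by locus, changed by −0.18 ± 0.08 and did not pass (adjusted p = 0.1), though it did without tt4_CO 2 (−0.22) or tt4_UV 1 (−0.22). The median of the other pair was −0.44, where that of all probe sets tested was 0.00.

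Among regulators of the cycle, 5 of 11 were measured and 3 fell in the mean effect (22.0% of all probe sets did), none rising. They were RCA, the activase that frees Rubisco of inhibitors (−0.17 ± 0.03, limma, 9 against 9, adjusted p = 0.000863), the thioredoxin gene TRXM2 (−0.29 ± 0.05, 0.000589) and AT2G04700 (−0.30 ± 0.06, 0.000753). TRXF2, for a thioredoxin that activates cycle enzymes (−0.33 ± 0.13, 0.0544), and NTRC, for a reductase with its own thioredoxin domain (−0.16 ± 0.06, 0.0504), did not pass. Leaving out any 1 of 6 arrays brought TRXF2 past the threshold (lowest adjusted p = 0.0225, without WT_CO 3), and any 1 of 4 arrays did so for NTRC (lowest 0.0187, also without WT_CO 3). RCA changed by −0.44 on the deposited scale.

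The thylakoid lists together held 62 genes, of which 12 were measured, 10 besides PSAN and ATPC1. In the mean effect 5 of these 10 fell, against 22.0% of all probe sets, and none rose. Their median was −0.25, and it was −0.38 on the deposited scale. PSB27, for a lumenal factor in the assembly and repair of photosystem II, fell in all 3 genotypes (mean −0.67 ± 0.09, limma, 9 against 9, adjusted p = 5.37e-05) and its 9 UV arrays lay below its 9 CO arrays. PGRL1B, for a protein of cyclic electron flow around photosystem I, fell by 0.40 on the log2 scale (SE 0.08, adjusted p = 0.00121), and AT2G26500, listed by locus among electron carriers, fell by 0.31 (SE 0.06, 0.000913).

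ATPC2, for a second form of the ATP synthase gamma subunit, changed by −0.34 ± 0.11 (limma, 9 against 9, adjusted p = 0.0258), and its call ended without WT_UV 1 (adjusted p = 0.053), WT_UV 2 (0.0514), sng1_UV 3 (0.0546) or sng1_CO 3 (0.0525). LHCB4.1, for an antenna protein of photosystem II, changed by −0.10 ± 0.04 (0.0469), a call that held without 5 of the 18 arrays only, its adjusted p ranging up to 0.0937. Members that did not pass were PSAE-1 of photosystem I (−0.18 ± 0.08), PSBY (−0.09 ± 0.05) and PSBW (−0.05 ± 0.06) of photosystem II, and the antenna genes LHCB4.2 (−0.02 ± 0.15) and LHCB4.3 (−0.54 ± 0.23). The count of 5 ran from 3 to 7 when single arrays were left out. It reached 7 after centring arrays on their medians and 8 on the deposited scale, where PSAE-1 (−0.44), PSBY (−0.28) and PSBW (−0.21) passed as well.

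Photorespiration, which recovers the carbon lost when Rubisco takes up oxygen, was measured through 4 of 12 listed genes, and all 4 fell in every genotype, as 7.77% of all probe sets did. HPR, for hydroxypyruvate reductase of the peroxisome, fell by 1.08 on the log2 scale in the mean effect (SE 0.08, limma, 9 against 9, adjusted p = 2.8e-07). The others, listed by locus, were AT1G11860 (−1.06 ± 0.08), AT1G32470 (−0.87 ± 0.08) and AT1G80380 (−0.65 ± 0.10). Their median was −0.96, near the values of SBPASE and PRK, and all 4 had their UV arrays below their CO arrays, as had 7.99% of all probe sets.

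Chlorophyll synthesis was measured through 2 of 12 genes. CHLM, for the methyltransferase of magnesium protoporphyrin, fell in all 3 genotypes (mean −0.93 ± 0.12, limma, 9 against 9, adjusted p = 3.6e-05), and PORB, for a light-dependent reductase of protochlorophyllide, changed by −0.22 ± 0.14 without passing (0.227). The 2 measured of 6 genes of the oxidative pentose phosphate pathway, the stromal route that runs against the cycle, did not pass, with AT1G64190 at 0.11 ± 0.05 (0.0622) and AT5G41670 at 0.09 ± 0.10 (0.507). AT1G64190 passed as a rise without any 1 of 4 arrays (lowest adjusted p = 0.0242, without sng1_CO 1), after centring (0.18) and as deposited (0.13). None of the 6 genes of starch and sucrose synthesis had a named probe set. For the 29 probe sets of these pathways, the 4 genes included, 9 comparisons between genotypes gave no call.

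**Figure D5:**
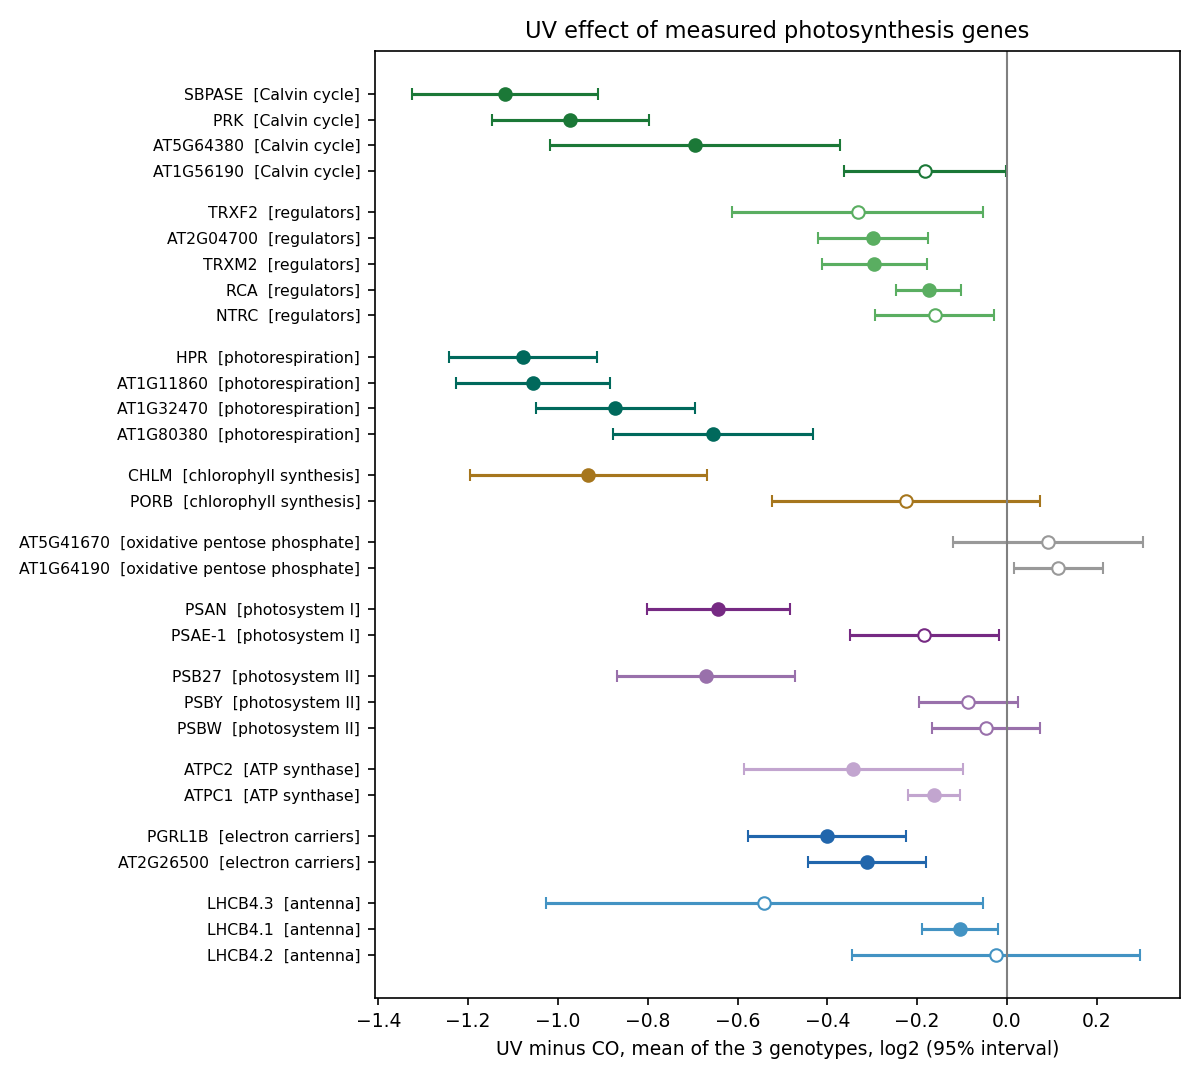
UV minus CO averaged over the 3 genotypes (log2, horizontal axis, with the 95% interval of the limma fit) for each measured gene of the photosynthesis lists; filled points passed the threshold. The stromal genes SBPASE and PRK (−1.12 and −0.97) lie with CHLM (−0.93) and 3 of the 4 photorespiration genes. PSAN (−0.64) lies beside PSB27 (−0.67), the photorespiration gene AT1G80380 (−0.65) and the Calvin cycle gene AT5G64380 (−0.70). ATPC1 lies with RCA near −0.17, as does the Calvin cycle gene AT1G56190 (−0.18).

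Likeness to each gene was measured as the root mean square difference between profiles of the 6 group means, each centred on its own mean, over 8853 probe sets with 1 gene that were above the floor on all 18 arrays. SBPASE was most like AT5G02940 (0.0377), AT3G01690, AT3G62110, NdhL, a subunit of the chloroplast NDH complex, and the tubulin gene TUB6 (0.0565). PRK was most like AT5G52190 (0.0364), AT3G28040, AT1G66820, AT1G26665 and AT2G16630 (0.0519). The genes nearest to PSAN were AT1G12450 (0.0169), CPI1, AT3G09470, AT3G01750 and the stomatal factor FMA (0.0444), and those nearest to ATPC1 were AT4G09150 (0.0165), AT2G04940, AT5G16120, AT1G09150 and RCA (0.0217). Of these, AT3G01750, AT4G09150, AT2G04940, AT5G16120 and AT1G09150 had no called UV effect in any genotype. The measure is not scaled by the spread of a gene, so a nearly flat profile lies near that of ATPC1.

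The 4 genes were not the nearest to one another. PRK took place 123 among the probe sets most like SBPASE, at a difference of 0.14, and PSAN place 782 (0.274). PSAN took place 520 from PRK (0.184). ATPC1 took place 3014 from SBPASE (0.488), 2950 from PRK (0.409) and 2386 from PSAN (0.246).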

How the data were processed

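Each of the 18 Affymetrix arrays was hybridized with biotinylated cRNA from 10 µg of total RNA of a single plant, per the labels' protocols. The deposited values were linear intensities for 22810 probe sets per array, and by their values the authors had scaled every array to a mean of 500, taken after trimming 2% of probe sets at either end. For the software and the background correction, the sources used here state nothing. Genes were named only from the supplied annotation table, which gave 1 gene for 13513 of the tested probe sets, several for 503 and none for 8730.

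Signals were quantile normalized between arrays with the 64 control probe sets included. Values under 16 were then set to 16, log2 was taken and the controls were set aside. A linear model with 6 group coefficients was fitted to all arrays in limma 3.58.1 under R 4.3.3 (12 residual degrees of freedom), with eBayes and Benjamini-Hochberg adjustment over 22746 probe sets for each of 13 comparisons. The threshold for a call was an adjusted p of 0.05. Precision was limited by the number of arrays, and a UV effect had a median standard error of 0.17. On data simulated for UV minus CO in WT over 22746 probe sets, 60 of 100 changes of 1 log2 unit and 18 of 100 changes of 0.5 were recovered. No other probe sets were changed in the simulation, whereas 24.4% were called for this comparison in the data. The adjustment is stricter where fewer probe sets change, so these counts do not give the share recovered in the data.

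The members and the gene lists were chosen with earlier results of these data known. Named genes were the 4 members, every measured gene of the Calvin cycle, photosystem, ATP synthase, electron carrier and antenna lists, up to 3 of each other list by adjusted p, and the 5 probe sets most like each member. TRXF2 and NTRC lie outside that rule and were named after their values were seen, to account for all measured regulators, as was the fourth photorespiration gene. Alternatives were other scalings, floors of 1 and 64, a filter on dim probe sets, array weights, a trend in eBayes, a replicate block, single genotypes and leaving out each array. Replicate numbers were checked for pairing through the correlation of deviations of UV and CO arrays of the same number, which ran from −0.24 to 0.20, so the numbers were not taken to pair plants.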

Additional observations from a re-analysis of the deposited data

How the results depend on the processing

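SBPASE and PRK kept their direction and their call in all 111 alternative fits and PSAN in 110. ATPC1 kept its direction in all 111, its calls in tt4, sng1 and the mean in 72 of 83, and gained one in WT in 3 of 28. ATPC1 in WT passed after centring on medians (−0.37) and as deposited (−0.44), and leaving out single arrays gave −0.16 to −0.084. In sng1 it missed the threshold at −0.16 with a floor of 1, with dim probe sets left out or with a trend, at −0.15 with the 6 sng1 arrays alone, and the range without single arrays was −0.19 to −0.14. In tt4 it missed at −0.21 with a floor of 1 or without dim probe sets and at −0.17 without the 3 arrays of lowest weight, a choice made after seeing the data, as did PSAN at −0.47. The cause was not tested. The 6 arrays of a genotype alone gave 2975 calls in WT, 3006 in tt4 and 5792 in sng1.

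Counts of calls between genotypes were small and moved. For tt4 minus WT under UV and in CO they ran from 2 to 13 and from 0 to 16 without single arrays, for sng1 minus WT from 3 to 12 and from 2 to 21, and for tt4 minus sng1 from 5 to 12 and from 4 to 20. For the differences of UV effects they ran from 1 to 6 (tt4 and WT), from 0 to 6 (sng1 and WT) and from 1 to 6 (tt4 and sng1). A floor of 1 gave 1 call for tt4 minus WT in CO, 2 and 4 for sng1 minus WT under UV and in CO, 4 for tt4 minus sng1 in CO, 2 for the UV effects of tt4 and WT and 1 for those of sng1 and WT. A floor of 64 gave 3 for tt4 minus WT and 5 for tt4 minus sng1, both in CO, and 2 for the UV effects of tt4 and sng1. Without dim probe sets the counts were 1 (tt4 minus WT, CO), 3 and 4 (sng1 minus WT, UV and CO) and 2 (UV effects of tt4 and sng1). Centring gave 2 and 5 for sng1 minus WT, 6 for tt4 minus sng1 in CO and 2 for the UV effects of tt4 and sng1, and the deposited values gave 3, 8 and 4 for the first 3 of these. Array weights gave 9 for sng1 minus WT and 21 for tt4 minus sng1, both in CO. Without the 3 arrays of lowest weight the counts were 9 and 11 (tt4 minus WT), 0 and 6 (sng1 minus WT), 14 (tt4 minus sng1, UV), 10 (UV effects of tt4 and WT), 4 (sng1 and WT) and 8 (tt4 and sng1). With the replicate block they were 0 (tt4 minus WT, CO), 3 (sng1 minus WT, UV), 3 (tt4 minus sng1, CO) and 2 (UV effects of tt4 and sng1). The replicate block gave 5421 calls for UV in WT and changed no call of the 4 genes. With 3 plants a group, a UV effect had a median standard error of 0.17 over all probe sets, and that of ATPC1 one of 0.05.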
